A study of Mus musculus with 6 samples.

Results

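Integrins are the adhesion receptors with which B cells hold on to stromal cells, follicular dendritic cells, vessel walls and matrix, and 10 integrin genes were followed here in cultured mouse B cells given Cpd10, an inhibitor of the transcription factor FOXO1, or its solvent DMSO. The 10 genes were Itga4, Itga6, Itgal, Itgam, Itgav, Itgax, Itgb1, Itgb2, Itgb3 and Itgb7, out of 54838 genes in the count table, and all 10 passed the filter on low counts. They were chosen by symbol with the fold changes of this same comparison already known, in particular those of Itga6 and Itgb3. Their differences between Cpd10 and DMSO are therefore given as descriptions, with standard errors and with the calls of a fit across all genes, and nothing is supported with them.

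The 6 libraries came from 2 groups of 3. The starting cells were naive B cells from the spleens of 10 male mice, 3 months old, 9 days after immunisation with SRBC; they were isolated by flow sorting in 2 independent experiments and the mice were pooled ahead of culture. All cultures were activated for 5 days with an anti-CD40 antibody at 5 µg/ml and mouse interleukin 4 at 80 ng/ml, in a medium made for embryonic stem cells. From day 3 the DMSO group received DMSO and the Cpd10 group 1 µM Cpd10, for 48 h. No strain, engineered allele or untreated group is named in the labels. Since the cells were pooled and no label ties a replicate letter to an animal or culture, the spread between replicates may be technical.

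An integrin is a pair of 1 alpha and 1 beta chain that assemble before they reach the surface, so a chain without its partner is not displayed. The alpha chain largely sets the ligand: alpha 6 with beta 1 binds laminin, alpha 4 with beta 1 or beta 7 binds VCAM1 or MADCAM1, alpha V with beta 1 or beta 3 binds fibronectin or vitronectin, and alpha L, M or X with beta 2 binds ICAMs, complement or fibrinogen. The short beta tail inside the cell is where talin and kindlin dock to switch the receptor on. In B cells, alpha L beta 2 (LFA-1) and alpha 4 beta 1 (VLA-4) are the classical receptors of the germinal centre and of entry into lymphoid tissue.

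The coding stretch around the first talin-docking motif is shown for the 4 beta genes, because the beta tail is where a receptor is switched on. Capitals mark the codons of asparagine, proline, any residue, and tyrosine or phenylalanine. The stretches were read 5′ to 3′ from spliced GENCODE M21 transcripts (GRCm38) and cross an exon junction. The capitals lie at chr8:128732029-128732040 (plus strand) for Itgb1, chr10:77565181-77565192 (plus) for Itgb2, chr11:104667086-104667097 (plus) for Itgb3 and chr15:102216250-102216261 (minus) for Itgb7.
Itgb1: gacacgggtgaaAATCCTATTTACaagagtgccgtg
Itgb2: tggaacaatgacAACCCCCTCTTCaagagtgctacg
Itgb3: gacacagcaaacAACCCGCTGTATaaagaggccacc
Itgb7: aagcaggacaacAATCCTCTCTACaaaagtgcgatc

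Over these 36 bases Itgb7 was 61.1% identical to Itgb1 and to Itgb2, while Itgb3 and Itgb2 were 47.2% identical, the lowest of the pairs. Itgb2 ended the motif with a phenylalanine codon (TTC), the other 3 with a tyrosine codon (TAC or TAT). A second motif of the same form followed in Itgb1, Itgb2 and Itgb7 and was not found in Itgb3. For the alpha chains, the stretch around the membrane-facing tail motif of glycine, 2 phenylalanines, lysine and arginine is shown in the same way for Itga6 and Itgav, the alpha genes with the lowest and the highest fold change. The capitals lie at chr2:71853537-71853551 and chr2:83803243-83803257, both on the plus strand.
Itga6: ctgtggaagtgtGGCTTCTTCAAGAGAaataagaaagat
Itgav: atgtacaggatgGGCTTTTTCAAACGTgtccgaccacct

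These 39 bases were 46.2% identical between Itga6 and Itgav. All 6 alpha genes carried the motif in their principal transcript.

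Libraries held 36873204 to 44859930 counts. Counting error is largest for Itgam, at 0 to 36 counts per library, then for Itgax at 60 to 230 and Itgb7 at 210 to 497. Values are given in CPM (counts relative to library size, with sizes scaled by TMM). Replicate libraries differed by more than counting noise (chi-square per degree of freedom 11.5 to 157). The largest axis of variation in log2 CPM (46.3%) did not follow the treatment, which the next axis (22.7%) did: DMSO A, DMSO C and Cpd10 A, called set 1, lay apart from DMSO B, Cpd10 B and Cpd10 C, called set 2. The set is in no label and was found from these counts. B cell markers summed to 4063 to 5249 CPM in every library, while the platelet genes Pf4, Ppbp and Gp1bb, the macrophage genes C1qa and Mertk, the dendritic cell genes Clec9a and Clec10a and the neutrophil genes S100a8 and S100a9 had 0 counts in all 6. Other genes of those lists were present: over the 6 libraries Adgre1 ranged from 8.77 to 21.1 CPM, Cd68 from 14.98 to 50.2, Zbtb46 from 35.2 to 47.2 and Flt3 from 3.68 to 36.0, and the T cell kinase gene Lck reached 49.0 CPM in DMSO C.

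Scaled by gene length, the integrin transcripts formed a high and a low tier. In DMSO, Itgb2 was highest at 71.0 ± 8.38 CPM per kilobase of exon (mean ± SD, n = 3, as for all such values below), followed by Itgal at 47.1 ± 1.43, Itgb1 at 35.2 ± 1.95 and Itgb3 at 28.5 ± 6.41. Itgav followed at 3.99 ± 0.237, with Itgb7 at 2.815 ± 1.37, Itga4 at 2.66 ± 0.786 and Itga6 at 2.39 ± 0.187, then Itgax at 0.866 ± 0.404 and Itgam at 0.0864 ± 0.0236. The ranges over DMSO libraries did not overlap between Itgb2, Itgal, Itgb1 and Itgb3, or between Itgb3 and Itgav, while that of Itgb7 (1.75 to 4.37) overlapped those of Itgav, Itga4 and Itga6. Among 12178 protein-coding genes tested, Itgb2 stood at the 95.4th percentile of DMSO level per length and Itga6 at the 30.5th.

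**Figure D1:**
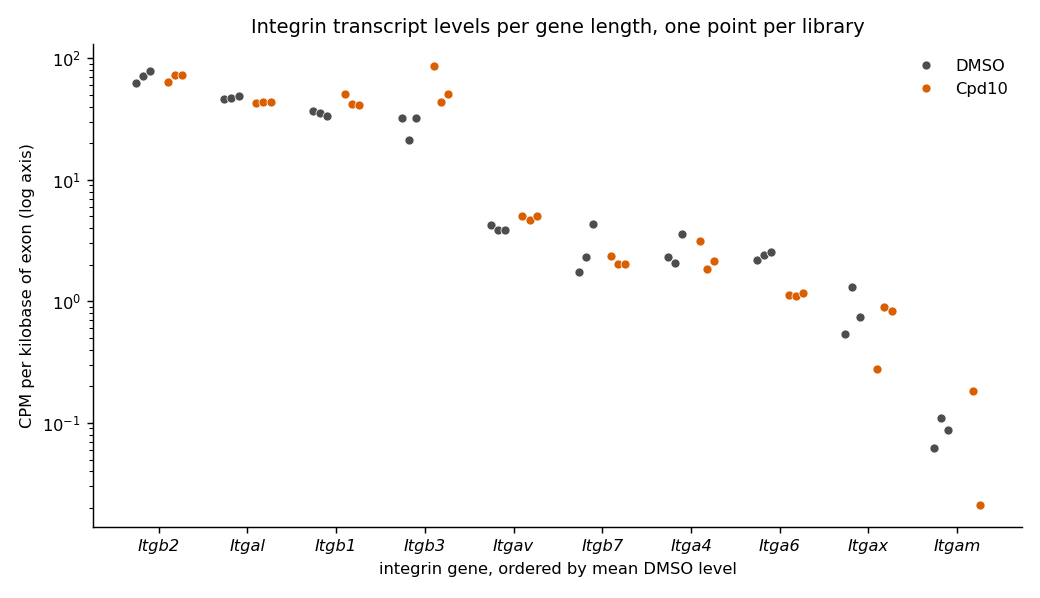
Level of each integrin transcript in CPM per kilobase of annotated exon (vertical, log axis), 1 point per library, genes ordered by their DMSO mean. Itgb3 stands at 21.1 to 32.4 in DMSO and 43.8 to 86.4 in Cpd10, and Itga6 at 2.19 to 2.57 and 1.11 to 1.17. Itgam in Cpd10 A has 0 counts and cannot be drawn on this axis.

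In cells given Cpd10 the order of the high tier was different. Itgb3 stood second at 60.4 ± 22.8 CPM per kilobase, beside Itgb2 at 69.9 ± 5.08, and its range of 43.8 to 86.4 overlapped that of Itgb2 (64.1 to 73.3). Itgb1 at 44.7 ± 5.27 and Itgal at 43.6 ± 0.624 overlapped. These levels divide by the union of all annotated exons, which for Itga4 (13978 bases) and Itga6 (9025 bases) is much longer than the principal transcript (9767 and 4310 bases). With principal transcript lengths Itga6 stood above Itga4 and Itgb7 in DMSO, at 5.00 against 3.801 and 2.91, and the order of the 5 highest in DMSO was kept. In Cpd10 those lengths put Itgal at 55.1 ± 0.790 above Itgb1 at 47.9 ± 5.64, the reverse of their order per exon length.

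Itga6, the alpha chain of the laminin receptors, was lower in every Cpd10 library. Itga6 lies at chr2:71745616-71858416 (plus strand, GRCm38; ENSMUSG00000027111). Its values were 19.8, 21.75 and 23.2 CPM in DMSO A, B and C and 10.2, 10.0 and 10.6 CPM in Cpd10 A, B and C. The groups did not overlap, and the Cpd10 libraries lay closer to each other than the DMSO libraries did. The log2 fold change, Cpd10 minus DMSO, was -1.07 (SE 0.13), so that Cpd10 cells held 47.6% of the DMSO level. The difference was the same within set 1 (-1.08) and within set 2 (-1.08), where 1 group has a single library. Itgb4, the other beta partner of alpha 6 and known from epithelia, ranged from 0.649 to 1.39 CPM over the 6 libraries.

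Some marker sums moved with Itga6. The 7 T cell markers summed to 43.2, 39.0 and 50.04 CPM in DMSO A, B and C and 26.9, 25.2 and 22.0 CPM in Cpd10 A, B and C, nearly all of it Lck, with Cd3e, Cd3d and Cd3g at 14 counts or fewer in any library. Lck had a log2 fold change of -0.84 and an edgeR adjusted p of 0.0786 (0.00216 with the library set, described above, as a term). The 5 markers of CD11c+ atypical B cells (70.7 to 84.9 CPM summed in DMSO, 45.5 to 59.0 in Cpd10, mostly Zeb2) and the 8 of fibroblasts and endothelium (11.9 to 20.65 and 4.94 to 10.1, mostly Pecam1) did not overlap between groups either. The macrophage and monocyte sum went the other way, at 29.8 to 43.7 CPM in DMSO and 57.2 to 63.6 CPM in Cpd10. Sums of the remaining marker lists overlapped between groups. For single genes, 14.6% of all tested genes did not overlap between groups. The part of any marker list in Itga6 was not tested.

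By edgeR's quasi-likelihood test over 15136 genes, Itga6 was the only member called, at an adjusted p under 0.05, and it fell. That is 1 of 10 members, beside 0.370% of all tested genes called and 0.0529% called lower; since the comparison had a part in choosing the members, nothing is read from this share. The call depended on single libraries, as calls over all genes did. Those numbered 56 with all libraries and 5, 1, 1 and 0 without DMSO A, DMSO C, Cpd10 B or Cpd10 C. The call of Itga6 was lost without DMSO A, without DMSO C, without Cpd10 B or without Cpd10 C, when 0 of 10 members were called, and with the replicate letter as a block. Its log2 fold change over the 6 fits that leave out a library stayed between -1.12 and -1.01.

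**Figure D2:**
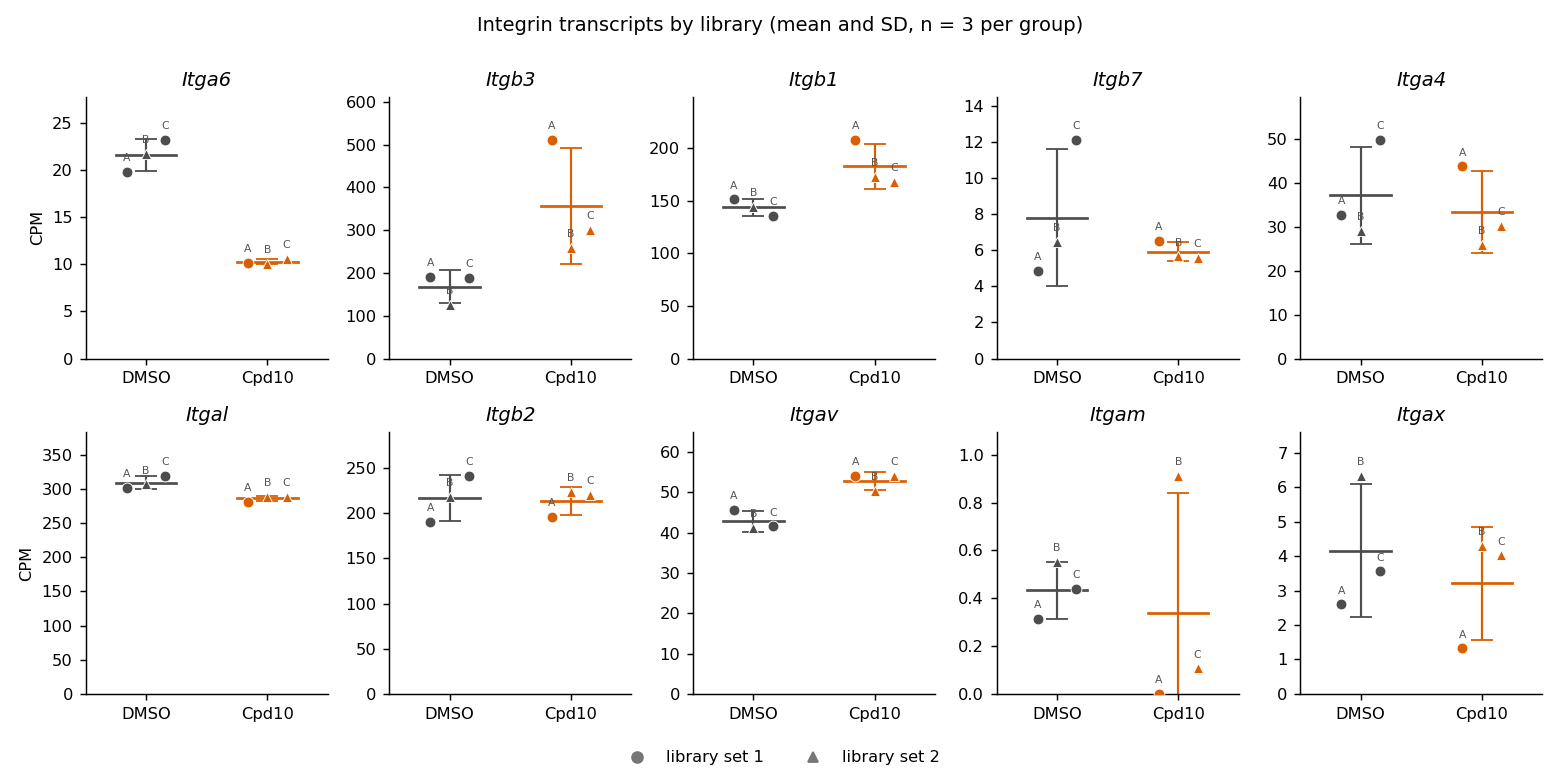
CPM of each integrin gene in the 6 libraries (letters A to C name the replicates, circles library set 1, triangles set 2), with the mean and SD of each group; all axes start at 0 and are linear, and the SD bar of Itgam in Cpd10 runs below 0 and is clipped. Itga6 shows 3 Cpd10 points near 10 CPM under 3 DMSO points near 20, and Itgb3 a wide Cpd10 spread led by library A.

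Itgb3, the beta chain of the vitronectin receptor and of the platelet fibrinogen receptor, was higher in every Cpd10 library. Itgb3 lies at chr11:104608000-104670476 (plus strand; ENSMUSG00000020689). It measured 191, 124.5 and 189 CPM in DMSO A, B and C and 510, 259 and 301 CPM in Cpd10 A, B and C. The groups did not overlap, but the libraries spread widely, with a coefficient of variation of 22.5% in DMSO and 37.8% in Cpd10, and in each group the libraries of set 1 lay above those of set 2. The log2 fold change was 1.08 (SE 0.29), or 2.12-fold, and it did not pass the test over all genes. Within set 1 the log2 ratio was 1.43 and within set 2 it was 1.17.

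With the library set as a term beside the treatment, the log2 fold change of Itgb3 was 1.30 (SE 0.092) and it was called higher. That fit called 3.96% of all tested genes, and of the members it called 3: Itgb3 and Itgb1 higher and Itga6 lower. The set was taken from these same counts, so the fit is exploratory, and the calls are descriptions like the rest. Itgb3 was called in each of the 6 repeats of this fit that left out a library, at log2 fold changes of 1.18 to 1.43. Without DMSO B, set 2 holds no DMSO library, so the value of 1.43 rests on Cpd10 A against DMSO A and C. Without Cpd10 A, set 1 holds no Cpd10 library, so the value of 1.18 rests on Cpd10 B and C against DMSO B. In the fit without the set, leaving out Cpd10 A took the log2 fold change from 1.08 to 0.74.

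Integrin beta 3 pairs with alpha V and, in platelets, with alpha IIb. Itga2b, the alpha IIb gene, was at 1.79, 4.16 and 2.68 CPM in DMSO A, B and C and 1.67, 4.01 and 3.86 CPM in Cpd10 A, B and C. Its order was the reverse of that of Itgb3 by set: the set 2 libraries, low in Itgb3, were the high ones. Of the 9 megakaryocyte and platelet markers, 5 had 0 counts in all 6 libraries, and the list summed to 2.93 to 5.95 CPM in DMSO and 3.22 to 6.73 CPM in Cpd10. Nrgn of this list was higher in every Cpd10 library, as Itgb3 was, on 12 to 43 counts per library. It measured 0.31, 0.39 and 0.29 CPM in DMSO A, B and C and 0.79, 1.09 and 0.825 CPM in Cpd10 A, B and C. Gp1ba overlapped between groups, at 0.78 to 1.40 CPM in DMSO and 0.75 to 1.97 CPM in Cpd10. Of the 9 macrophage and monocyte markers, C1qa and Mertk were at 0 in all libraries and Csf1r at 6 counts or fewer. The macrophage list summed to 29.8 to 43.7 CPM in DMSO and 57.2 to 63.6 CPM in Cpd10, nearly all of it Adgre1 and Cd68. These 2 genes differed in opposite directions. Cd68, a lysosomal protein gene that was called higher, ran from 14.98 to 21.5 CPM in DMSO and 47.6 to 50.2 CPM in Cpd10. Adgre1, the gene of F4/80, ran from 13.9 to 21.1 CPM in DMSO and 8.77 to 14.15 CPM in Cpd10, or -0.63 on the log2 scale (edgeR adjusted p = 0.529) and -0.80 with the set as a term (edgeR adjusted p = 0.0252). The part of the platelet and macrophage lists in Itgb3 was not tested.

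Itgav, whose product is the alpha partner of beta 3, was modestly higher in Cpd10. Its locus is chr2:83724397-83806916 (plus strand; ENSMUSG00000027087). It measured 45.7, 41.2 and 41.5 CPM in DMSO A, B and C and 54.1, 50.3 and 54.1 CPM in Cpd10 A, B and C. The groups did not overlap, at a log2 fold change of 0.30 (SE 0.099) that was not called with or without the set, and the log2 ratio was 0.31 within set 1 and 0.34 within set 2. Other beta chains known to pair with alpha V were scarce: Itgb5 ranged from 0.132 to 1.38 CPM, Itgb8 had 2 counts over all 6 libraries and Itgb6 had 0.

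Itgb1, the common beta chain that serves alpha 4, alpha 6 and alpha V alike, was also higher in every Cpd10 library. Its locus is chr8:128685654-128733200 (plus strand; ENSMUSG00000025809). It measured 151, 144 and 135 CPM in DMSO A, B and C and 207, 172.5 and 168 CPM in Cpd10 A, B and C. The groups did not overlap, and the log2 fold change was 0.35 (SE 0.11), which was not called. The log2 ratio was 0.53 within set 1, where Cpd10 A is the sole Cpd10 library, and 0.24 within set 2. Its call with the set as a term, at a log2 fold change of 0.39, was lost without Cpd10 A, at 0.25, and also without Cpd10 B or without Cpd10 C, at 0.40 and 0.42.

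Itga4, the alpha chain of VLA-4 and of the gut-homing receptor, did not separate the groups. The gene lies at chr2:79255426-79333123 (plus strand; ENSMUSG00000027009). It measured 32.7, 29.1 and 49.6 CPM in DMSO A, B and C and 43.7, 25.9 and 30.2 CPM in Cpd10 A, B and C. The high libraries were DMSO C and Cpd10 A, both of set 1. The log2 fold change was -0.16 (SE 0.26), and without DMSO C it was 0.11. Cerkl, on the opposite strand, shares 8.04% of the exon bases of Itga4, with 357 counts over the 6 libraries against 8694 for Itga4; whether the counting used strand was not stated.

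Itgb7, the gut-homing partner of alpha 4, was low and uneven in DMSO. The gene lies at chr15:102215995-102231944 (minus strand; ENSMUSG00000001281). It measured 4.86, 6.44 and 12.1 CPM in DMSO A, B and C and 6.52, 5.66 and 5.59 CPM in Cpd10 A, B and C. DMSO C lay above the other 5 libraries, which the groups shared. The log2 fold change was -0.40 (SE 0.34), and without DMSO C it was 0.074. Plasma cell markers were likewise highest in DMSO C. Summed over Sdc1, Jchain, Prdm1 and Tnfrsf17 they stood at 807, 448 and 2222 CPM in DMSO A, B and C and at 807, 290 and 252 CPM in Cpd10 A, B and C, and their part in the values of Itga4 and Itgb7 was not tested. In bulk RNA, more cells of a kind and more RNA per cell cannot be told apart.

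The 2 chains of LFA-1, the ICAM receptor, had the smallest log2 fold changes in the fit with the group alone. Itgal (chr7:127296260-127335138, plus strand; ENSMUSG00000030830) measured 301, 307 and 319.5 CPM in DMSO A, B and C and 282, 289 and 288.5 CPM in Cpd10 A, B and C. The groups did not overlap, yet the log2 fold change was only -0.11 (SE 0.087), not called, at coefficients of variation of 3.03% and 1.43%. Itgb2 (chr10:77530252-77565708, plus strand; ENSMUSG00000000290) measured 190.5, 218 and 242 CPM in DMSO A, B and C and 195.5, 224 and 221 CPM in Cpd10 A, B and C. The groups overlapped, and the log2 fold change was -0.023 (SE 0.12). It was 0.067 without DMSO C and 0.045 without Cpd10 A, so no direction is given for Itgb2.

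Itgax, which encodes CD11c, the alpha chain of a complement receptor found on dendritic cells and on a subset of B cells, was low. The gene lies at chr7:128129547-128150657 (plus strand; ENSMUSG00000030789). It measured 2.60, 6.33 and 3.55 CPM in DMSO A, B and C and 1.32, 4.29 and 4.02 CPM in Cpd10 A, B and C. Libraries of set 2 were higher than those of set 1 in both groups, and the groups overlapped. The log2 fold change was -0.37 (SE 0.52) and, with the set as a term, -0.89 (SE 0.29), neither called. It was 0.060 without DMSO B and 0.0092 without Cpd10 A. Of 7 dendritic cell markers, 2 were at 0 in all libraries and the sum, mostly Zbtb46 and Flt3, was 51.0 to 75.75 CPM in DMSO and 40.1 to 64.6 CPM in Cpd10. The 5 markers of CD11c+ atypical B cells summed to 70.7 to 84.9 CPM in DMSO and 45.5 to 59.0 CPM in Cpd10, mostly from Zeb2, with Tbx21 at 30 counts or fewer. The part of either list in Itgax was not tested.

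Itgam, which encodes CD11b, the alpha chain of a macrophage complement receptor, was close to the limit of detection. It had 14, 20 and 18 counts in DMSO A, B and C against 0, 36 and 4 counts in Cpd10 A, B and C. The gene lies at chr7:128062640-128118491 (plus strand; ENSMUSG00000030786). Gm49368, a coding gene model on the same strand, covers 68.7% of its exon bases and has 0 counts in every library, so reads that fall on both models may have been given to neither. The level of Itgam is therefore uncertain and no fold change is read from it. No other member shares more than 8.04% of its exon bases with another gene.

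Over the 10 members, 3 lay higher in all Cpd10 libraries than in any DMSO library (Itgb3, Itgb1 and Itgav), 2 lay lower (Itga6 and Itgal) and 5 overlapped. Among all tested genes 14.6% did not overlap in one direction or the other. The median log2 fold change of the 10 was -0.13, beside -0.0012 over all tested genes, and with the set as a term -0.086 beside -0.011. Within both sets the difference had the same sign for Itga6, Itgb3, Itgb1, Itgav, Itgal, Itgb7 and Itgax, but not for Itga4 and Itgb2.

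**Figure D3:**
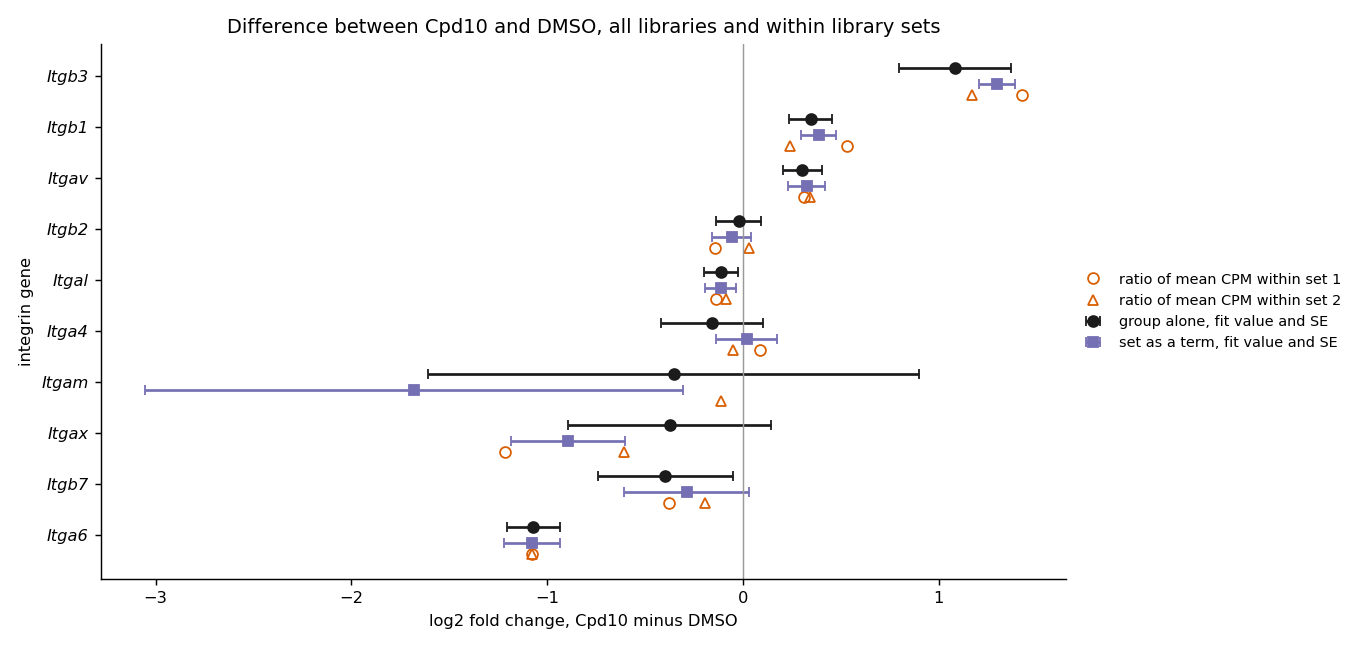
Log2 fold change of each integrin gene, Cpd10 minus DMSO (horizontal), from the fit with the group alone (black circles, bars are SE), from the fit with the library set as a term (squares, SE) and as the log2 ratio of mean CPM within each set (open symbols, no error because 1 group has a single library there). Itga6 sits at -1.07 to -1.08 in all 4, and Itgb3 at 1.08 to 1.43; Itgam has no set 1 value because its only Cpd10 library there has 0 counts.

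Because chains work in pairs, the transcript ratio of beta to alpha per kilobase was followed for known heterodimers. The lengths are those of all annotated exons, and the absolute size of a ratio depends on that choice. For Itga6 this length is 9025 bases, against 4310 for the principal transcript. Other lengths would multiply a pair's ratio by the same factor in every library, so the comparison between groups does not depend on them. For the laminin receptor the ratio of Itgb1 to Itga6 was 16.9, 14.7 and 12.9 in DMSO A, B and C against 45.0, 37.99 and 35.1 in Cpd10 A, B and C. The groups lay far apart, since numerator and denominator differed in opposite directions. For the vitronectin receptor the ratio of Itgb3 to Itgav was 7.61, 5.50 and 8.275 in DMSO A, B and C against 17.15, 9.36 and 10.1 in Cpd10 A, B and C, again without overlap.

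The ratio of Itgb1 to Itgav stayed near 9, at 8.84 ± 0.340 in DMSO and 9.10 ± 0.953 in Cpd10, because both were higher by a similar factor. That of Itgb2 to Itgal was 1.51 ± 0.135 and 1.60 ± 0.0943, and that of Itgb7 to Itga4 was 1.03 ± 0.251 and 0.930 ± 0.174, with overlapping groups in all 3 pairs. For VLA-4 the ratio of Itgb1 to Itga4 was 15.9, 17.0 and 9.34 in DMSO A, B and C against 16.3, 22.8 and 19.0 in Cpd10 A, B and C, where Cpd10 A lay below DMSO B. That of Itgb2 to Itgax, with its low denominator, was 92.2 ± 33.2 and 134 ± 85.8, also with overlap. A transcript ratio is not a ratio of chains at the surface, which was not measured here.

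**Figure D4:**
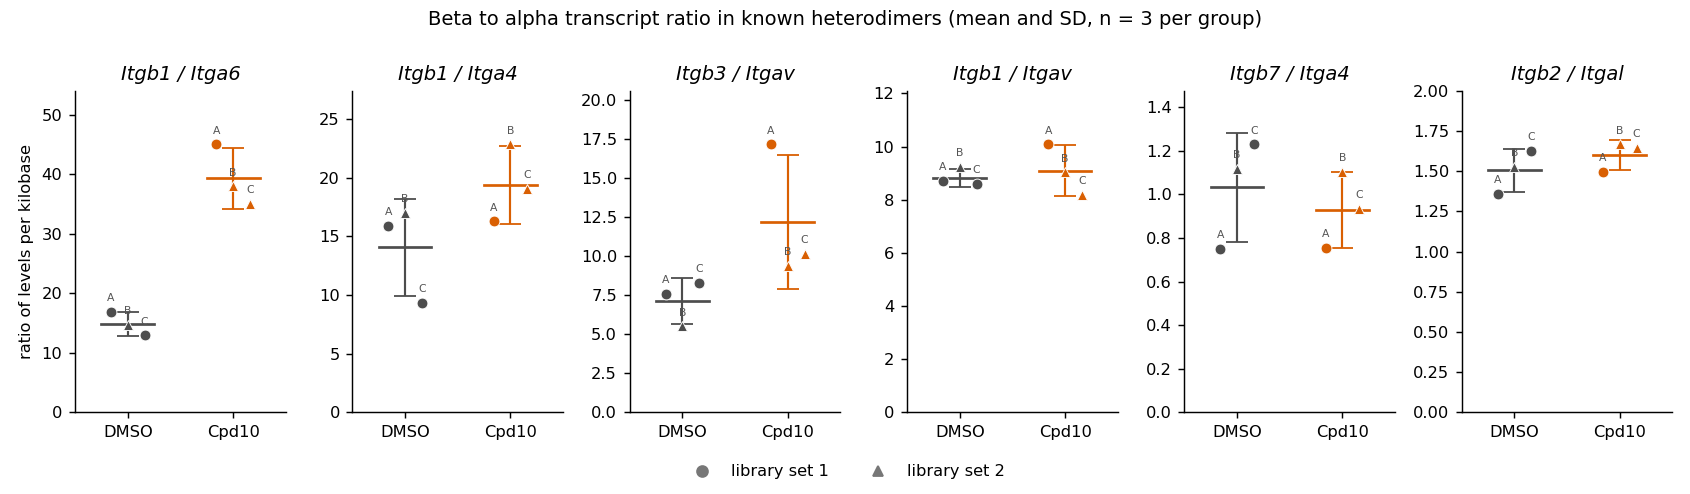
Ratio of beta to alpha transcript level per kilobase of exon (vertical, linear from 0) in 6 known pairs, 1 point per library with mean and SD per group; circles are set 1 and triangles set 2. Itgb1 to Itga6 runs from 12.9 to 16.9 in DMSO and from 35.1 to 45.0 in Cpd10, and Itgb3 to Itgav from 5.50 to 8.275 and from 9.36 to 17.15, while the other 4 pairs overlap.

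Promoter windows from RefSeq (GRCm38.p6, 250 bases before to 50 after the start) were found for 6 of the 10 members: Itgb1, Itgb7, Itga4, Itgav, Itgam and Itgax. The FOXO recognition letters GTAAACA, searched on both strands, occurred in 0 of the 6 windows, and in 3.65% of the 32851 windows of all genes. The letters GAGGAA, a core of PU.1 and other ETS factors that overlaps no part of the FOXO letters, occurred in 4 of 6 (Itgb1, Itgb7, Itgav and Itgam) and in 28.3% of all windows. A match or its absence in such a window describes letters alone. The upstream 250 bases are shown for Itgb1 and Itgav, 2 members that were higher without overlap, with the GAGGAA letters or their reverse complement TTCCTC in capitals. They lie at chr8:128685404-128685653 and chr2:83724147-83724396, both on the plus strand, with 68.0% and 64.4% G or C.
Itgb1: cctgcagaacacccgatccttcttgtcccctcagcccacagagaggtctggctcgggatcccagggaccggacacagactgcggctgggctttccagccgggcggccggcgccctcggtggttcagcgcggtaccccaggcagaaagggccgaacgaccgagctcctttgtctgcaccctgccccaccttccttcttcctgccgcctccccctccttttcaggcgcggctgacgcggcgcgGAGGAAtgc
Itgav: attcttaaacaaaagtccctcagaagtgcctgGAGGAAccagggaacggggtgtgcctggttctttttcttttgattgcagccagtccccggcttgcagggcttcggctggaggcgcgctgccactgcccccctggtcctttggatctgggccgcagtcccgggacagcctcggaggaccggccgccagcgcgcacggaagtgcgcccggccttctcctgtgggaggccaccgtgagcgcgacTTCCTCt

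Over the 6 libraries, log2 CPM of Itga6 ran most closely beside Psenen (Pearson r = 0.992), Kremen1 (0.990), Dhx57 (0.986), Sh2d3c (0.983) and Chd7 (0.980), out of 8644 genes at a mean of at least 10 CPM. Itgb3 ran most closely beside Men1 (0.997), Pnp (0.994), Stim1 (0.994), Prim2 (0.992) and Malt1 (0.991). These are descriptions over 6 libraries that share 2 groups and 2 sets, and high values arise easily among so many genes. Malt1, the paracaspase of antigen receptor signalling, went from a mean of 102 CPM with DMSO to 325 CPM with Cpd10. The others differed far less between groups: Prim2, a primase subunit and the next by ratio, stood at 36.1 and 48.9 CPM. Between members, Itga6 ran opposite to Itgav (r = -0.948) and beside Itgal (0.934), and Itgb3 ran beside Itgb1 (0.906) and Itgav (0.890).

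The genes that act with integrins were read from 6 lists written with the earlier results of these data known. None of their 128 tested genes was called by edgeR, where 0.317% of all tested genes were called higher and 0.0529% lower. At an unadjusted p under 0.05 there were 24 of the 128 (18.8%), against 1270 of all tested genes (8.39%), and DESeq2 called 5 higher and 4 lower, where it called 2.27% of all the genes edgeR tested. With the set as a term, edgeR called 6 higher and 8 lower (10.9%, beside 3.96% of all tested genes). In the 6 lists, 25 genes did not overlap between groups, 14 higher and 11 lower (19.5%, beside the 14.6% over all tested genes).

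**Figure D5:**
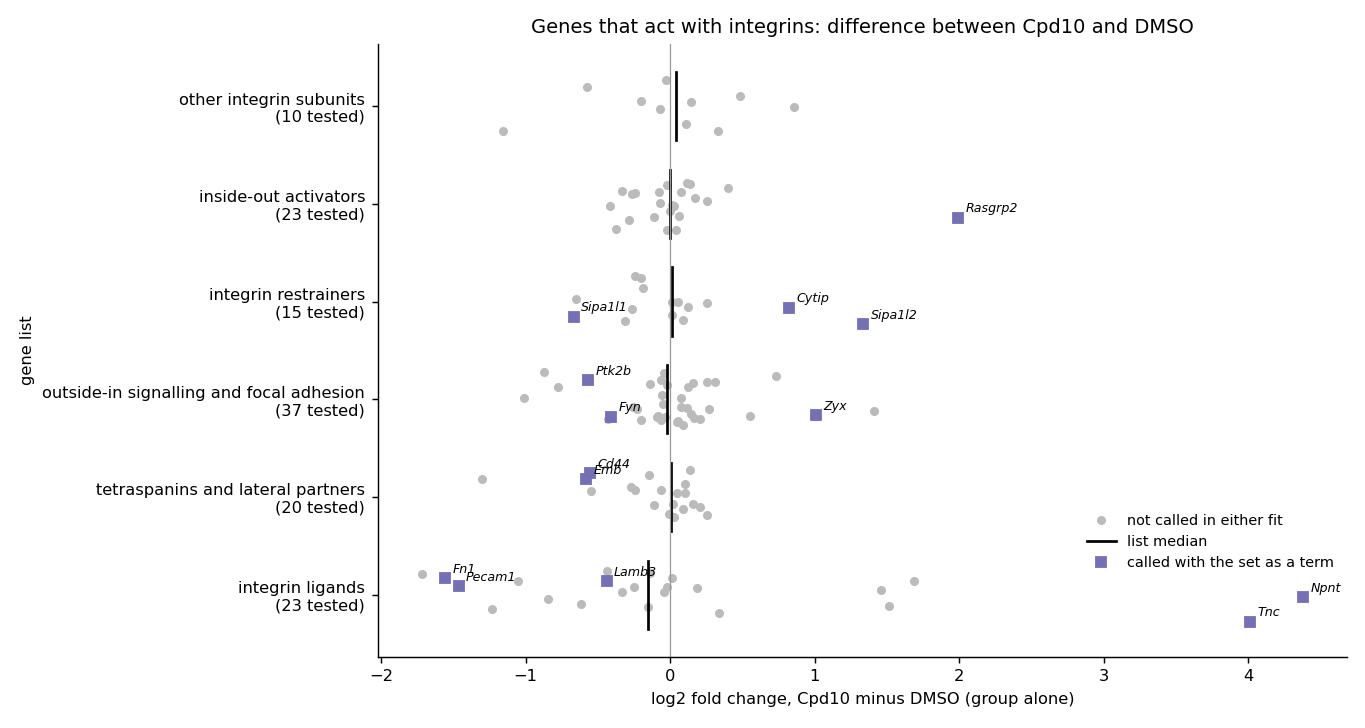
Log2 fold change, Cpd10 minus DMSO, from the fit with the group alone (horizontal) for every tested gene of 6 lists, 1 point per gene, spread vertically at random for legibility; black bars are list medians, and squares mark genes called when the library set was a term. None was called without it, the medians lie between -0.16 and 0.038, and Rasgrp2, Npnt and Tnc stand farthest to the right.

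The list of other integrin subunits held 17 genes, with Itgbl1 (integrin beta-like 1), which is no alpha or beta chain, among them. Of the 17, 10 were tested and 0 called, with 1 at an unadjusted p under 0.05, 0 called by DESeq2 and a median log2 fold change of 0.038. Itga5, the alpha chain of the fibronectin receptor, measured 7.01, 14.1 and 5.81 CPM in DMSO A, B and C and 15.6, 13.6 and 19.45 CPM in Cpd10 A, B and C (0.85 on the log2 scale, SE 0.34, edgeR adjusted p = 0.562). DMSO B lay within the Cpd10 range and the other DMSO libraries below it. Itga1, a collagen receptor chain, ranged from 0.0441 to 0.275 CPM, and Itga10 ranged from 2.44 to 4.72 CPM (adjusted p = 0.826 and 0.974 by edgeR). Itga11, Itgb6 and Itgbl1 had 0 counts in every library.

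Of 23 tested activators of integrins from inside the cell, 0 were called, 1 had an unadjusted p under 0.05 and the median was -0.0035. That gene was Rasgrp2, the exchange factor that loads the GTPase RAP1 to switch integrins on. It measured 34.8, 30.2 and 52.8 CPM in DMSO A, B and C and 208, 112 and 149 CPM in Cpd10 A, B and C. The groups lay far apart (log2 fold change 1.99, SE 0.29), though edgeR gave an adjusted p of 0.0539, and it was called by DESeq2 and with the set as a term (2.18, edgeR adjusted p = 0.00523). Vav3 had -0.42 (SE 0.19, edgeR adjusted p = 0.629). Rap1a itself was at 692 ± 50.7 and 727 ± 77.0 CPM and Rapgef1, another RAP1 exchange factor, at 683 ± 26.5 and 814 ± 126 CPM, with overlapping groups.

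Of 15 tested restrainers of integrins, 0 were called and 5 had an unadjusted p under 0.05, with a median of 0.011; DESeq2 and the fit with the set each called 2 higher and 1 lower. Sipa1l1, of the family of proteins that turn RAP1 off, measured 146, 191 and 170.5 CPM in DMSO A, B and C and 110, 106 and 104 CPM in Cpd10 A, B and C (-0.67 on the log2 scale, SE 0.11, edgeR adjusted p = 0.0780). Cytip, which binds the LFA-1 regulator cytohesin 1, ranged from 44.7 to 66.6 CPM over DMSO and from 86.2 to 113 CPM over Cpd10 libraries (0.82, SE 0.18, edgeR adjusted p = 0.150). Neither gene's groups overlapped, and they differed in opposite directions. Rasa3, a RAP1 and RAS inactivator, and Flna, filamin A, which competes with talin for beta tails, had overlapping groups at edgeR adjusted p of 0.782 and 0.982. Sipa1l2, the third gene called with the set, was named after its values were seen (1.48 with the set, edgeR adjusted p = 0.00140).

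Of 37 tested genes of signalling and actin linkage behind bound integrins, 0 were called and 9 had an unadjusted p under 0.05, with a median of -0.023; DESeq2 called 1 higher and 1 lower. Ptk2b, the adhesion kinase PYK2 of leukocytes, measured 293, 274 and 345.5 CPM in DMSO A, B and C and 210, 207 and 198 CPM in Cpd10 A, B and C (-0.57 on the log2 scale, SE 0.11, edgeR adjusted p = 0.116, and 0.00596 with the set as a term). Coro1a, coronin 1A of the cortical actin network, measured 953, 1036 and 1006 CPM in DMSO A, B and C and 1237, 1272 and 1208 CPM in Cpd10 A, B and C (0.31, SE 0.11, edgeR adjusted p = 0.510). In neither gene did the groups overlap. Fyn, a SRC family kinase, stood at 168 ± 8.48 and 126 ± 16.8 CPM (edgeR adjusted p = 0.317, and 0.0398 with the set as a term), and Rac2, the leukocyte RAC GTPase, at 674 ± 26.6 and 696 ± 22.75 CPM (edgeR adjusted p = 0.949). Zyx, the adhesion protein zyxin, named after its values were seen, was called higher with the set as a term (1.29, edgeR adjusted p = 3.13e-05).

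Of 20 tested tetraspanins and other lateral partners in the membrane, 0 were called, 4 had an unadjusted p under 0.05, DESeq2 called 0 and the median was 0.0064. Cd44, the hyaluronan receptor, measured 1123, 981 and 847 CPM in DMSO A, B and C and 545.5, 744 and 722 CPM in Cpd10 A, B and C (-0.55 on the log2 scale, SE 0.17, edgeR adjusted p = 0.372, and 0.0338 with the set). Tspan13, a tetraspanin, had 134 ± 3.08 CPM under DMSO and 160 ± 9.85 CPM under Cpd10 (0.26, SE 0.088, edgeR adjusted p = 0.457). The groups did not overlap for either gene. Cd53, a leukocyte tetraspanin and among the highest of the list per length, had overlapping groups at an edgeR adjusted p of 0.892. Emb, embigin, named after its values were seen, was called lower with the set as a term (-1.03, edgeR adjusted p = 0.00267).

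Of 23 tested ligands, 0 were called, 4 had an unadjusted p under 0.05 and the median was -0.16; DESeq2 called 1 higher and 2 lower, and the fit with the set 2 higher and 3 lower. Pecam1, an adhesion molecule and ligand of alpha V beta 3, measured 10.2, 10.6 and 19.5 CPM in DMSO A, B and C and 4.10, 5.83 and 4.71 CPM in Cpd10 A, B and C (-1.46 on the log2 scale, SE 0.30, edgeR adjusted p = 0.130, and 0.0356 with the set as a term). Npnt, nephronectin, was nearly absent in DMSO, at 0.0896, 0.05505 and 0 CPM, and stood at 1.76, 0.659 and 0.798 CPM in Cpd10 A, B and C (edgeR adjusted p = 0.154, and 0.014 with the set as a term). Its fold change rests on very few counts and is not given. Icam1, the LFA-1 ligand that B cells themselves carry, had 108 ± 10.9 CPM under DMSO and 106 ± 7.38 CPM under Cpd10, and Tgfb1, whose latent form alpha V integrins bind, ranged from 139 to 173 and from 138 to 184 CPM, both with overlapping groups (edgeR adjusted p = 0.974 and 0.965). Pecam1 also stands among 8 fibroblast and endothelial markers and makes up most of their sum. Of the others, Col3a1 and Dcn were at 0 in all libraries, Cdh5 ranged from 0.203 to 1.37 CPM, and Pdgfrb was highest in DMSO B, Cpd10 B and Cpd10 C at 4.51, 4.01 and 2.77 CPM; their part in its difference was not tested.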

How the data were processed

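Poly A selected, strand-specific RNA libraries of 6 samples were read as 1 table of raw counts per gene, deposited by the authors without normalisation. Per the submitters' processing notes, the build was GRCm38 (mm10) and the tools included DESeq2, featureCounts 2.0.6 and STAR 2.7.10a; the annotation release, the strand setting and the treatment of reads on overlapping genes are not given in the sources used here. Of 54838 identifiers, 54809 were found in GENCODE M21, which gave symbols, coordinates and exon lengths.

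Counts were fitted with edgeR 4.0.16 in R 4.3.3 (TMM, filterByExpr, estimateDisp and the quasi-likelihood test, both robust; 15136 genes), with the group as the only term. Adjusted p-values are Benjamini-Hochberg over all tested genes, with calls under 0.05; SE is |log2 fold change| over the root of F. Log2 CPM used a prior count of 2. Alternatives were RLE scaling, no filter, DESeq2 1.42.0, a replicate block, a library set term and leaving out each library. The set is the split into 3 and 3 libraries that the largest number of genes mark (9; the next split has 1), by at most 3 counts on one side and at least 50 on the other. Scripts were tested on simulated data.

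The members, lists, tests and naming rule were chosen with earlier results of these data known. The rule names all members, called list genes, or else the 2 with the smallest p and the 2 highest per length in DMSO, and the 5 genes most correlated with Itga6 and with Itgb3. A lateral partner that the rule names is not reported here. Tail motif stretches were added afterwards. Of the marker lists, NK cell (2.08 to 13.3 CPM summed), neutrophil (0 to 0.706), erythroid (0 to 0.532), and B1 and marginal zone (59.4 to 96.4) are not discussed further.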

Additional observations from a re-analysis of the deposited data

How the results depend on the processing

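With 3 libraries per group, the spread between libraries limits these results, and for Itgam the counts. Over all genes 56 were called, 59 with RLE scaling, 194 without the filter, 356 by DESeq2, 599 with the library set as a term and 0 to 100 when a library was left out. Of the members 1 was called, 2 by DESeq2 (Itgb3 higher, Itga6 lower), 3 with the set, and 0 to 1 when a library was left out. Deviations from group means correlated at 0.309 for replicate letter A and 0.432 for B but at -0.315 for C, whose libraries lie in different sets. Across letters but within a set they correlated at 0.464 (DMSO C with Cpd10 A) and 0.411 (DMSO B with Cpd10 C). Since these values follow the set, they cannot decide whether replicate letters pair the libraries. With the replicate block edgeR called 49 genes and 0 members, since Itga6 lost its call at a log2 fold change of -1.07, while Itgb3 was not called in either fit.

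In the 6 lists, called counts went from 0 to 1, 3, 2 and 3 by DESeq2 for activators, restrainers, signalling genes and ligands, to 3, 1 and 2 without the filter for restrainers, signalling genes and ligands, and to 1, 3, 3, 2 and 5 with the set for activators, restrainers, signalling genes, lateral partners and ligands. They stayed at 0 with RLE scaling, the replicate block and any library left out. The direction of Itga6, Itgb3, Itgb1, Itgav and Itgal held in every alternative run, and that of the other 5 did not. Leaving out a library gave -0.64 to 0.074 for Itgb7, -0.40 to 0.11 for Itga4, -0.10 to 0.067 for Itgb2, -3.01 to 0.24 for Itgam and -0.64 to 0.060 for Itgax. Itga4 was 0.019 with the set. With the set and a library left out, a choice made after seeing the data, Itgb7 was 0.073 without DMSO C, Itga4 0.087, 0.157 and 0.075 without DMSO B, DMSO C or Cpd10 B, and Itgb2 0.038 and 0.042 without DMSO C or Cpd10 A. The cause of these shifts was not tested.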
